A study of Mus musculus with 48 samples.

Results

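The transcripts described here are those of 5 genes that mark blood cells: Hba-a1 and Hba-a2, which encode the alpha chain of adult hemoglobin, Alas2, which encodes the first enzyme of heme synthesis in developing red cells, and S100a8 and S100a9, which encode the paired subunits of calprotectin. They were taken by symbol from both expression tables of a study of mouse cerebral cortex, and all 5 were found among the 18939 genes with a unique symbol in the table of the APOE-TR mice, while 4 of them (all but S100a8) were found among the 27082 genes of the B6 table. RNA had been sequenced from 48 mice in 12 groups of 4, formed by genotype, sex and exposure. B6 mice were C57BL/6J animals of 4 months by their labels, and APOE-TR mice, of 6 months, carried the human APOE3 or APOE4 allele in place of mouse Apoe. Exposed mice inhaled nPM, a re-aerosolized nanoscale part of urban particulate matter, and controls inhaled filtered air, over 8 weeks (B6) or 15 weeks (APOE-TR), with 3 exposures of 5 hr in each week. Strain, age, length of exposure, nPM batch and expression table all changed together between B6 and APOE-TR mice and cannot be told apart. Levels were therefore not tested across them. The comparisons asked whether blood-borne transcripts differed with nPM or between the APOE alleles.

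Circulating red cells have lost their nucleus but still hold globin mRNA, and reticulocytes, the youngest of them, are the richest in it. Globin reads in perfused tissue are commonly taken as a measure of residual blood. The heme made by the pathway that Alas2 opens is bound by the globin chains. S100a8 and S100a9 are among the most abundant mRNAs of neutrophils, and the proteins are called alarmins because, once released, they alert other cells through receptors such as Tlr4 and Ager. Monocytes and, under some conditions, microglia also express both genes. The study's methods state that mice were perfused with saline before the brain was removed. In bulk tissue, fewer cells of a type and less RNA per cell cannot be told apart.

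Hba-a1 and Hba-a2 are copies of one gene, with starts 12820 bases apart on chromosome 11 (11:32283672-32284487 and 11:32296492-32297311 in mm10, plus strand, in the APOE-TR table). S100a8 (3:90669071-90670035, plus strand) and S100a9 (3:90692630-90695722, minus strand) are neighbors that face each other on chromosome 3, and Alas2 lies on the X chromosome (X:150547417-150570623, plus strand). The 250 bases before each start site are shown because the genes fell into a red cell set and an S100 pair by their values in individual mice. Sequences are from RefSeq (GRCm38.p6, the build of mm10), and capitals mark matches, on either strand, to GATAA (the core of GATA factor sites), to the box CCAAT, to the box CACCC and to the box TATAA.

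Hba-a1, chr11:32283422-32283671, plus strand: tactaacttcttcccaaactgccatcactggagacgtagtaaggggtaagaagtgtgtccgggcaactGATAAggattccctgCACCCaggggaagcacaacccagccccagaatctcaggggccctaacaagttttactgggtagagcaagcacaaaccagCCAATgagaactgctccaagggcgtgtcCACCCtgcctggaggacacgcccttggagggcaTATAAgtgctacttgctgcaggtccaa

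Alas2, chrX:150547167-150547416, plus strand: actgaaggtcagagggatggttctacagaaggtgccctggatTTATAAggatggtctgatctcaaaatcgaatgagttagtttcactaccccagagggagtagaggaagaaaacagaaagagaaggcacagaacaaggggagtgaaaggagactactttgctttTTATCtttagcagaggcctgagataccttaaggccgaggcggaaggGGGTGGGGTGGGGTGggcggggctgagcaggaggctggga

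S100a8, chr3:90668821-90669070, plus strand: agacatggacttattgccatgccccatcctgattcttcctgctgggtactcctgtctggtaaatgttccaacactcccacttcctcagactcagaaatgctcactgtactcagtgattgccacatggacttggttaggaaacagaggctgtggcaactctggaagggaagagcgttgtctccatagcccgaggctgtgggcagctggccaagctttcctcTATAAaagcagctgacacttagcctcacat

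S100a9, chr3:90695722-90695971, minus strand: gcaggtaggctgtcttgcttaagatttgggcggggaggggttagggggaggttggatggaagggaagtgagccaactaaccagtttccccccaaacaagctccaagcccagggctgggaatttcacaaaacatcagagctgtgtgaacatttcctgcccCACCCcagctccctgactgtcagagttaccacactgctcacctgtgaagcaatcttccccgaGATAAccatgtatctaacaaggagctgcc

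The window of Hba-a2 (chr11:32296242-32296491) is not shown because it is the same sequence moved by 3 bases: the start regions of the copies shared an unbroken run of 297 of 300 bases. All of the 4 motifs were present in the window of Hba-a1, as they were in 1.0% of 32851 mouse promoters. Singly they were common, with GATAA in 22.6%, CCAAT in 33.8%, CACCC in 52% and TATAA in 22.8% of promoters. Alas2 held all but the CCAAT box, S100a9 held GATAA and also the CACCC box, and S100a8 held TATAA only. TATAA overlaps its own reverse complement in Alas2. These are matches of letters and were not tested as binding sites.

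The coding parts of Hba-a1 and Hba-a2 have 426 bases each and differ at 1 of them (99.77% identity). Of all 50-base windows of the annotated transcript (GENCODE M21), 32.5% were found in Hba-a1 only and 13.1% in Hba-a2 only when each was set against the other. The authors kept uniquely mapping reads, so both values rest on the parts that differ, and how reads were split between the copies is uncertain. The same holds for the beta-globin copies Hbb-bs and Hbb-bt, which served as the closest other red cell genes.

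Values are the authors' CPM (normalized read counts). A gene without reads was taken to stand at the lowest value of its library, as if 1 read had been added to every gene. This was inferred from the values and is not stated in the sources used here. The listed genes held an estimated 17.8 to 31.3 M reads in APOE-TR mice and 2.05 to 24.4 M in B6 mice, which sets how low a level could be seen. Among APOE-TR mice the deepest female library (22.3 M) was below the shallowest male one (22.4 M), so depth and sex cannot be told apart. Sex labels matched their genes. In APOE-TR mice Xist was at least 90.3 CPM in females and at most 0.277 CPM in males. Ddx3y was 28.6 to 40.9 CPM in these males and at most 0.0481 CPM in the females. Apoe was 164 to 503 CPM in B6 and 8.81 to 30.7 CPM in APOE-TR mice. It separated B6 from APOE-TR mice but cannot tell APOE3 from APOE4, so the allele labels were not checked. Libraries of 2 APOE3 female controls stood apart. The median correlation of their log2 values with the other APOE-TR libraries was 0.846 (control 61) and 0.896 (control F6), against 0.956 to 0.989 for the other 30, and their Xist was 90.3 and 211 CPM against 526 to 910 CPM in the other females. The number in the name of control F6 matches no sample, so its group was read from the name of its column alone. For nPM in APOE3 females, the alleles in control females and the allele difference, values are also given without these mice, from fits without the filter on low values. Cortical neuron markers were high in all mice, with Snap25 at 2448 CPM and Camk2a at 2254 CPM on average in APOE-TR mice.

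Reads of Hba-a1 were found in the cortex of all 48 mice, and most of the spread of its level lay between mice of one group. In APOE3 females Hba-a1 was 2.86, 10.7, 22.6 and 33.02 CPM in controls and 5.52, 5.85, 21.3 and 21.4 CPM after nPM. Control 63, with 81 reads, and control 61, with 686 reads, are the lowest and the highest of all APOE-TR mice, 11.6-fold apart in a single group. In APOE4 females it was 8.10, 10.7, 11.5 and 13.4 CPM in controls and 3.21, 9.04, 10.3 and 14.8 CPM after nPM. The controls of this group lay close together and inside the range of the exposed mice.

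In APOE3 males Hba-a1 was 6.61, 7.14, 13.5 and 17.1 CPM in controls and 4.19, 11.6, 19.0 and 20.49 CPM after nPM. In APOE4 males it was 7.66, 14.5, 16.7 and 25 CPM in controls and 16.4, 16.4, 25.3 and 32.2 CPM after nPM. The exposed APOE4 males had the highest median of the 8 APOE-TR groups, 20.9 CPM, and APOE4 females after nPM had the lowest, 9.68 CPM. Ordered by median, every group overlapped its neighbor for each of the 5 genes.

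B6 mice had lower CPM, in a table that was made separately. Hba-a1 was 1.42, 1.61, 1.82 and 2.82 CPM in B6 female controls and 0.361, 1.19, 4.19 and 8.78 CPM after nPM. In B6 males it was 0.423, 0.455, 6.64 and 9.24 CPM in controls and 1.45, 1.91, 5.09 and 8.45 CPM after nPM. The B6 male controls fell into a low and a high pair, and the lowest exposed female (nPM 53) had an estimated 2 reads in one of the shallowest libraries, with 4.80 M reads. Hba-a2 gave the same picture at 0.120 to 9.87 CPM in B6 and 2.65 to 28.5 CPM in APOE-TR mice. Within a library the ratio of Hba-a2 to Hba-a1 was nearly fixed in APOE-TR mice, between 0.793 and 1.09 with a median of 0.887.

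**Figure D1:**
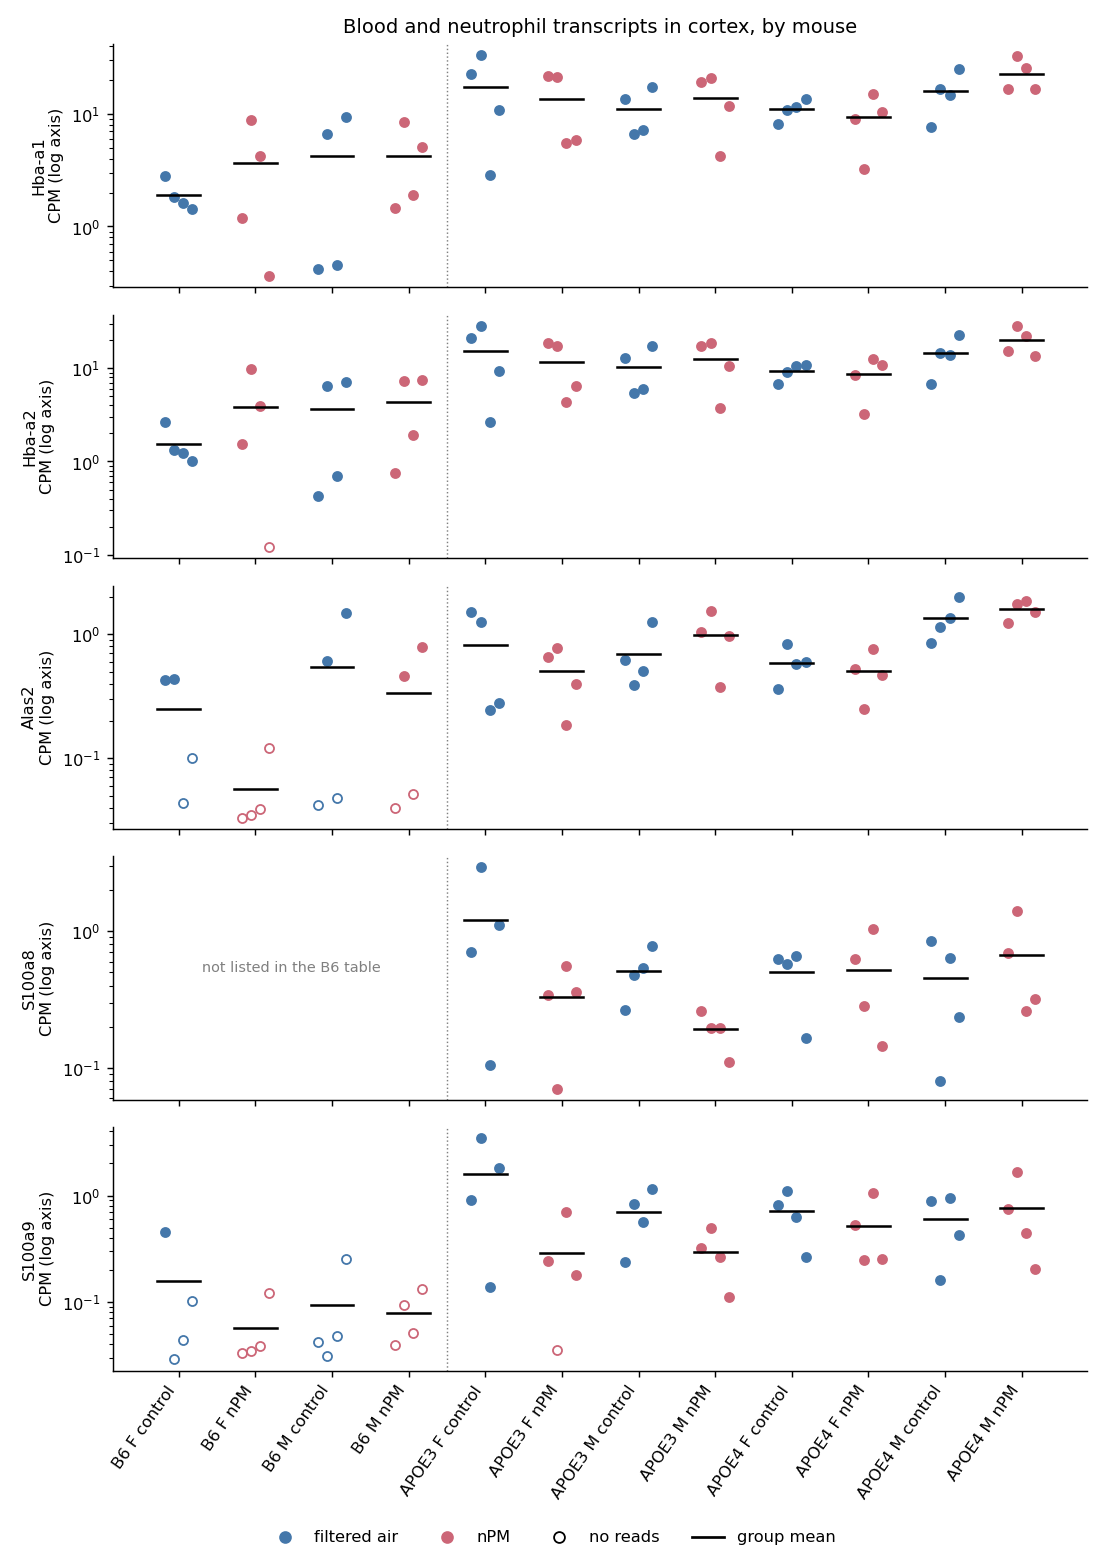
CPM (log axis) of each of the 5 transcripts in every mouse, with 1 point per mouse, the mean of each group of 4 as a bar, blue for filtered air and red for nPM, and open points for mice without reads of the gene. Hba-a1 runs from 2.86 to 33.02 CPM within the APOE3 female controls alone, and S100a9 has reads in 1 of the 16 B6 mice.

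The alpha-globin genes did not pass the test for nPM, for the APOE allele or for the allele difference in any of the 13 comparisons. Over all 48 mice the difference of Hba-a1 with nPM was 0.19 on the log2 scale (SE 0.28, 95% interval -0.37 to 0.74, adjusted p = 0.798, limma) and that of Hba-a2 was 0.23 (SE 0.28, interval -0.34 to 0.80, adjusted p = 0.750). Both intervals stay under 1 log2 unit on either side. Leaving out 1 mouse at a time moved Hba-a1 between 0.094 and 0.27 and Hba-a2 between 0.12 and 0.34, lowest without exposed B6 female 51 and highest without exposed B6 female 53. For APOE4 against APOE3 the differences were 0.20 for Hba-a1 (SE 0.34, interval -0.48 to 0.88, adjusted p = 0.873) and 0.19 for Hba-a2 (SE 0.35, interval -0.51 to 0.88, adjusted p = 0.883), which ran from 0.087 to 0.32 and from 0.075 to 0.30 when 1 mouse was left out. Of the genes tested over 48 mice, 1.24% were called for nPM (unadjusted p under 0.005) and 0.421% for the allele (5% FDR), and of the 3 members that reached a mean of 0.5 CPM in these fits (Hba-a1, Hba-a2 and Alas2) 0 were called for either. At an unadjusted p under 0.05 the members also numbered 0 of the 3, against 1810 of all 14236 genes for nPM and 1709 for the allele.

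The estimate of Hba-a1 with nPM differed in sign between strata, and none of these differences passed the threshold. It was 0.54 in APOE4 males (SE 0.30, adjusted p = 0.939), 0.47 in B6 males (SE 0.75, adjusted p = 0.997) and 0.32 in B6 females (SE 0.64, adjusted p = 0.900). In APOE3 males it was 0.21 (SE 0.44, adjusted p = 1). It was -0.36 in APOE4 females (SE 0.35, adjusted p = 0.795) and -0.11 in APOE3 females (SE 0.74, adjusted p = 0.923), and without controls 61 and F6 the latter became 0.42 (SE 0.89, adjusted p = 0.944). For Hba-a2 it went from -0.13 to 0.35 (SE 0.87, adjusted p = 0.944). The 95% intervals were wide, from -1.15 to 2.08 in B6 males and from -1.81 to 1.59 in APOE3 females.

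Between alleles, the largest estimate of Hba-a1 was in exposed males, at 16.4 to 32.2 CPM in APOE4 and 4.19 to 20.49 CPM in APOE3. The ranges overlapped, and the difference was 0.84 (SE 0.41, interval -0.05 to 1.74, adjusted p = 0.512), with 0.79 for Hba-a2 (adjusted p = 0.553). It was 0.50 in control males (adjusted p = 1), -0.15 in control females (adjusted p = 0.861) and -0.39 in exposed females (adjusted p = 0.721). In control females the sign turned without controls 61 and F6, to 0.38 for Hba-a1 (SE 0.65, adjusted p = 0.774), and from -0.21 to 0.25 for Hba-a2 (SE 0.65, adjusted p = 0.860). The nPM response did not pass the test for a difference between the alleles, with an estimate of 0.05 for Hba-a1 (SE 0.58, interval -1.13 to 1.23, adjusted p = 0.966) and 0.11 for Hba-a2 (SE 0.57, adjusted p = 0.927). Without controls 61 and F6 these also turned, to -0.22 (SE 0.58, adjusted p = 0.987) and -0.13 (SE 0.58, adjusted p = 0.991).

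Alas2, the erythroid form of the enzyme, was a low transcript with reads in all 32 APOE-TR mice but in 6 of the 16 B6 mice. In APOE4 males it was 0.854, 1.15, 1.35 and 2.01 CPM in controls and 1.23, 1.51, 1.76 and 1.84 CPM after nPM, which stand for 27 to 84 reads. In APOE3 males it was 0.386, 0.506, 0.619 and 1.26 CPM in controls and 0.373, 0.973, 1.04 and 1.55 CPM after nPM. All but 1 of the control APOE3 males lay below all control APOE4 males, and control 73, the exception, was also the APOE3 control male with the most Hba-a1.

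APOE4 against APOE3, the log2 difference of Alas2 was 0.64 in control males (SE 0.23, interval 0.14 to 1.15, adjusted p = 0.625) and 0.54 in exposed males (SE 0.22, interval 0.06 to 1.03, adjusted p = 0.438). These were the only tested values of a member in the 10 comparisons of 4 with 4 mice with an unadjusted p under 0.05, and neither passed the 5% FDR that 0.565% and 0.674% of genes passed there. Leaving out 1 mouse at a time kept the sign in control males, between 0.48 and 0.85, and in exposed males, between 0.31 and 0.72. In females the difference was -0.11 in controls (SE 0.34, adjusted p = 0.818) and 0.02 after nPM (SE 0.22, adjusted p = 0.962), and without controls 61 and F6 the value in controls was -0.16 (SE 0.36, adjusted p = 0.8294). Over 48 mice it was 0.26 (SE 0.18, adjusted p = 0.588), and with nPM it was -0.10 (SE 0.15, adjusted p = 0.795).

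The highest Alas2 level among APOE-TR females was 1.5 CPM, against 2.01 CPM among males. In APOE3 females it was 0.244, 0.277, 1.25 and 1.5 CPM in controls and 0.184, 0.397, 0.651 and 0.776 CPM after nPM. In APOE4 females it was 0.361, 0.573, 0.601 and 0.827 CPM in controls and 0.247, 0.469, 0.524 and 0.765 CPM after nPM. The difference with nPM was -0.26 in APOE3 females (SE 0.37, adjusted p = 0.612) and -0.13 in APOE4 females (SE 0.19, adjusted p = 0.868). The former was -0.31 without controls 61 and F6 (SE 0.41, adjusted p = 0.909). In males it was 0.31 in APOE3 (SE 0.26, adjusted p = 1) and 0.21 in APOE4 (SE 0.18, adjusted p = 0.941).

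In B6 mice Alas2 was seen in 2 of 4 female controls (0.428 and 0.433 CPM), in no exposed female, in 2 of 4 male controls (0.610 and 1.49 CPM) and in 2 of 4 exposed males (0.463 and 0.795 CPM). A count of 0 allows up to 3 reads, which in the 10 mice without reads would add 0.0990 to 0.361 CPM to the lowest value. The 1.49 CPM of male control 6 rests on about 5 reads in the shallowest library, of 2.05 M reads. At this depth a difference with nPM could not be judged, and Alas2 fell below the mean of 0.5 CPM in both B6 comparisons.

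S100a8 and S100a9 were below 1 CPM in most APOE-TR mice, on 0 to 71 reads. In APOE3 female controls S100a9 was 0.139, 0.908, 1.82 and 3.46 CPM, and after nPM it was 0.0353, 0.181, 0.240 and 0.699 CPM. S100a8 was 0.104, 0.710, 1.11 and 2.93 CPM in the same controls and 0.0705, 0.343, 0.361 and 0.552 CPM after nPM. The highest values of both genes in the whole APOE-TR table were in control 61, and the next of S100a9 was in control F6, the libraries that stood apart. Control 63 lay as low as the exposed mice. Exposed mouse 59 had no read of S100a9, where 3 reads would add 0.106 CPM to the lowest value of its library.

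The log2 difference with nPM in APOE3 females was -1.13 for S100a9 (SE 0.51, interval -2.29 to 0.03, adjusted p = 0.218) and -0.76 for S100a8 (SE 0.46, interval -1.81 to 0.28, adjusted p = 0.264). Without controls 61 and F6 these were -0.32 (SE 0.39, adjusted p = 0.908) and -0.06 (SE 0.32, adjusted p = 0.981), in a fit without the filter on low values. Without control 63 alone, S100a9 came to -1.60 with an unadjusted p of 0.00348 (adjusted p = 0.152) and was called. With the spread shared over all 8 APOE-TR groups, S100a9 had an adjusted p of 0.0240 (limma), which was not a call under the unadjusted threshold of 0.005. Of the genes tested in these mice, 0.648% were called.

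Other S100 genes were also high in these controls. The summed level of the 10 other S100 genes fixed as a list was 339 to 861 CPM in APOE3 female controls, 222 to 412 CPM in the exposed APOE3 females and 177 to 330 CPM over the remaining 6 groups. The neutrophil list gave 7.37 to 8.68 CPM and 6.61 to 8.65 CPM in APOE3 female controls and exposed females. Of its mean sum of 8.08 CPM over APOE-TR mice, 4.62 CPM came from Csf3r, which microglia also express. The sum therefore says little about the neutrophil genes with few reads. The microglia list was 343 to 459.9 CPM in these controls and 256 to 333 CPM in the exposed mice. The list of monocytes and border macrophages was 5.47 to 10.8 CPM and 4.49 to 5.85 CPM. The meningeal list was 141 to 409 CPM and 96.6 to 224 CPM, and the list of astrocytes and oligodendrocytes 4972 to 7254 CPM and 3731 to 5297 CPM. The choroid plexus list ran from 30.4 to 1497 CPM in these controls and from 10.2 to 98.1 CPM in the exposed mice. The slope of log2 level on log2 transcript length, relative to the other libraries, was -0.638 in control 61 and -0.469 in control F6 against -0.262 to 0.189 in the other APOE-TR libraries, so short transcripts read high in both. S100a8 and S100a9 have transcripts of 486 and 512 bases. The part of these measures in the S100a8 and S100a9 levels was not tested.

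In APOE3 males both genes were lower after nPM in their means. S100a8 was 0.265, 0.477, 0.536 and 0.784 CPM in controls and 0.111, 0.196, 0.198 and 0.261 CPM after nPM, on 8 to 27 and 3 to 8 reads. The lowest control and the highest exposed male, at 0.265 and 0.261 CPM, both rested on 8 reads. S100a9 was 0.236, 0.566, 0.840 and 1.15 CPM in controls and 0.111, 0.263, 0.319 and 0.491 CPM after nPM, so that the ranges overlapped through control 51.

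The means of both genes (0.353 and 0.497 CPM) were under the 0.5 CPM filter, so neither was tested in the main fit, where 0 of the 3 tested members and 0.116% of genes were called. Without the filter, S100a8 differed by -0.53 (SE 0.14, interval -0.83 to -0.23, adjusted p = 1.00, limma), with an unadjusted p of 0.00274 that was under 0.005. This call was made for 0.1% of all 18939 genes in the same direction. It was lost in 6 of the 8 fits that left out 1 mouse and when the spread was shared over all APOE-TR groups (unadjusted p = 0.151). S100a9 differed by -0.55 without the filter (SE 0.23, interval -1.05 to -0.04, adjusted p = 1.00, unadjusted p = 0.0361) and was not called. Without control 51 its mean was above the filter and it was called. On the recovered reads edgeR gave -1.54 for S100a8 and -1.30 for S100a9 (unadjusted p = 0.00206 and 0.0202), where the limma values are differences of log2(CPM + 0.5), a scale that understates the change of genes this low.

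S100a8 in APOE3 males was the only one of 48 pairs of a member and a comparison of 4 with 4 mice in which the groups did not overlap. Over all listed genes and the 10 such comparisons 5.93% of pairs did not overlap, and in APOE3 males 0.887% of genes had every exposed mouse below every control. The summed neutrophil list was 7.22 to 9.30 CPM in APOE3 male controls and 6.23 to 8.69 CPM after nPM, with Elane, Ly6g and Padi4 without reads in at least 16 of the 32 APOE-TR mice. Csf3r, at 4.62 CPM on average over APOE-TR mice, weighs most in this sum, which says little about the genes with few reads. Whether neutrophil RNA had a part in the S100a8 difference was not tested.

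In APOE4 males the means of the S100 pair were not lower after nPM. S100a9 was 0.161, 0.426, 0.885 and 0.951 CPM in APOE4 male controls and 0.203, 0.448, 0.745 and 1.65 CPM after nPM, and S100a8 was 0.0803, 0.237, 0.642 and 0.854 CPM and then 0.259, 0.320, 0.697 and 1.401 CPM. The groups overlapped almost entirely, with differences of 0.13 for S100a9 (SE 0.33, adjusted p = 0.973) and 0.28 for S100a8 (SE 0.32, adjusted p = 0.945). In APOE4 females S100a9 was 0.267, 0.634, 0.820 and 1.11 CPM in controls and 0.247, 0.253, 0.524 and 1.07 CPM after nPM, a difference of -0.26 (SE 0.28, adjusted p = 0.816). S100a8 was 0.167, 0.572, 0.623 and 0.664 CPM in these controls and 0.144, 0.282, 0.622 and 1.03 CPM after nPM, a difference of -0.02 (SE 0.28, adjusted p = 0.987).

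Over all 48 mice S100a9, at a mean of 0.487 CPM and fitted without the filter, differed by -0.32 with nPM (SE 0.14, interval -0.59 to -0.04, adjusted p = 0.438) and by 0.07 between the alleles (SE 0.17, adjusted p = 0.972), and was not called. Without controls 61 and F6 the nPM difference was -0.19 (SE 0.11, adjusted p = 0.894). The difference between the alleles in the nPM response was tested over the 32 APOE-TR mice. It was 0.78 for S100a8 (SE 0.36, interval 0.03 to 1.53, adjusted p = 0.427) and 0.78 for S100a9 (SE 0.40, interval -0.05 to 1.61, adjusted p = 0.427), higher in APOE4. Neither was called, while 0.711% of genes were. Without controls 61 and F6 and without the filter the values fell to 0.43 (SE 0.32, adjusted p = 0.902) and 0.37 (SE 0.36, adjusted p = 0.945), and leaving out 1 mouse at a time moved S100a8 between 0.64 and 0.98.

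Between alleles at 1 exposure, S100a9 was 0.56 higher in exposed APOE4 than APOE3 males (SE 0.29, adjusted p = 0.551) and S100a8, without the filter, 0.66 higher (SE 0.24, interval 0.13 to 1.197, adjusted p = 0.430), values that did not pass the test. In control females the differences were -0.49 for S100a9 (adjusted p = 0.454) and -0.48 for S100a8 (adjusted p = 0.421), and without controls 61 and F6 they turned to 0.31 and 0.21 (adjusted p = 0.658 and 0.731, fitted without the filter). In control males S100a9 differed by -0.12 (adjusted p = 1). In B6 mice S100a9 had reads in 1 of 16 mice, female control 40 with 0.452 CPM on about 16.5 reads. In the other 15 a count of 0 allowed up to 3 reads, which would add 0.0865 to 0.761 CPM to the lowest value.

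**Figure D2:**
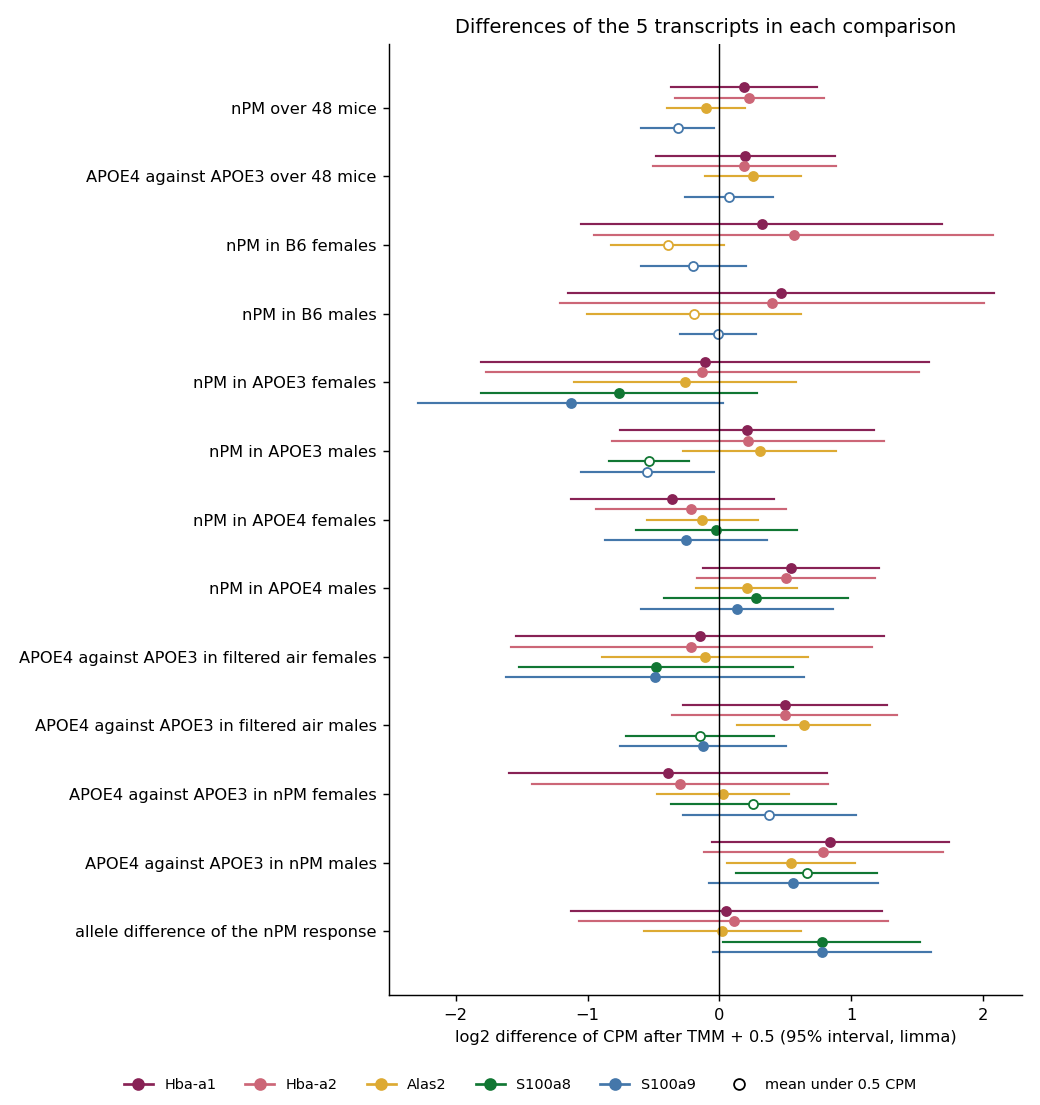
Log2 difference of each transcript (points, with 95% intervals from limma as lines) in each of the 13 comparisons, open where the gene's mean was under 0.5 CPM and the fit without that filter is plotted. Nearly all intervals cross 0, those of the globin genes are widest in B6 mice and APOE3 females, and S100a8 in APOE3 males runs from -0.83 to -0.23.

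The counts of called members were 0 in the main fit of every comparison, of 5 members tested in nPM in APOE3 females, nPM in APOE4 females, nPM in APOE4 males, APOE4 against APOE3 in control females and the allele difference. There were 4 tested in both allele comparisons of males, 3 in nPM in APOE3 males and in the allele comparison of exposed females, and 2 in each B6 comparison. The genes called there were 1.02% in B6 females, 0.252% in B6 males, 0.211% in APOE4 females and 0.15% in APOE4 males for nPM. For APOE4 against APOE3 they were 0.297% in control females and 0.224% in exposed females. Against shares this low, counts of 0 among 2 to 5 members are no result about the members.

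Mice that were high in one transcript of a set were high in the others of that set. Across the 32 APOE-TR mice the log2 values of Hba-a1 correlated with those of Hba-a2 (Pearson's r = 0.993, Spearman's rho = 0.991) and of Alas2 (r = 0.834, rho = 0.850). S100a8 correlated with S100a9 (r = 0.937, rho = 0.873). All of these had a permutation p of 1e-05, the smallest that 100000 resamples can give (adjusted 2.2e-05 over 11 pairs in both tables). Without the 2 mice farthest from the median they were 0.990, 0.811 and 0.899, and without controls 61 and F6 they were 0.992, 0.855 and 0.906. Within females and within males r was 0.991 and 0.995 for the Hba copies, 0.840 and 0.909 for Hba-a1 with Alas2, and 0.948 and 0.923 for the S100 pair. Centred on the group means, which removes genotype, sex and exposure, r was 0.992, 0.873 and 0.938. In B6 mice only the Hba pair could be examined (r = 0.971, rho = 0.947, permutation p = 1e-05, 16 mice).

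The red cell and S100 transcripts did not follow each other to a degree that passed a test. Hba-a1 with S100a9 gave r = 0.279 and rho = 0.166 (permutation p = 0.124 and 0.362, adjusted 0.226 and 0.498), and Hba-a1 with S100a8 gave r = 0.250 and rho = 0.106 (permutation p = 0.169 and 0.562, adjusted 0.23 and 0.593). Alas2 with S100a9 gave r = 0.174 (permutation p = 0.343, adjusted 0.377). In females the r of Hba-a1 with S100a9 was 0.394 and in males 0.160, and without controls 61 and F6 it was 0.197 over both. Exposed APOE3 female 59 had the fewest S100a9 reads of the APOE-TR mice with a Hba-a1 level of 21.3 CPM.

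**Figure D3:**
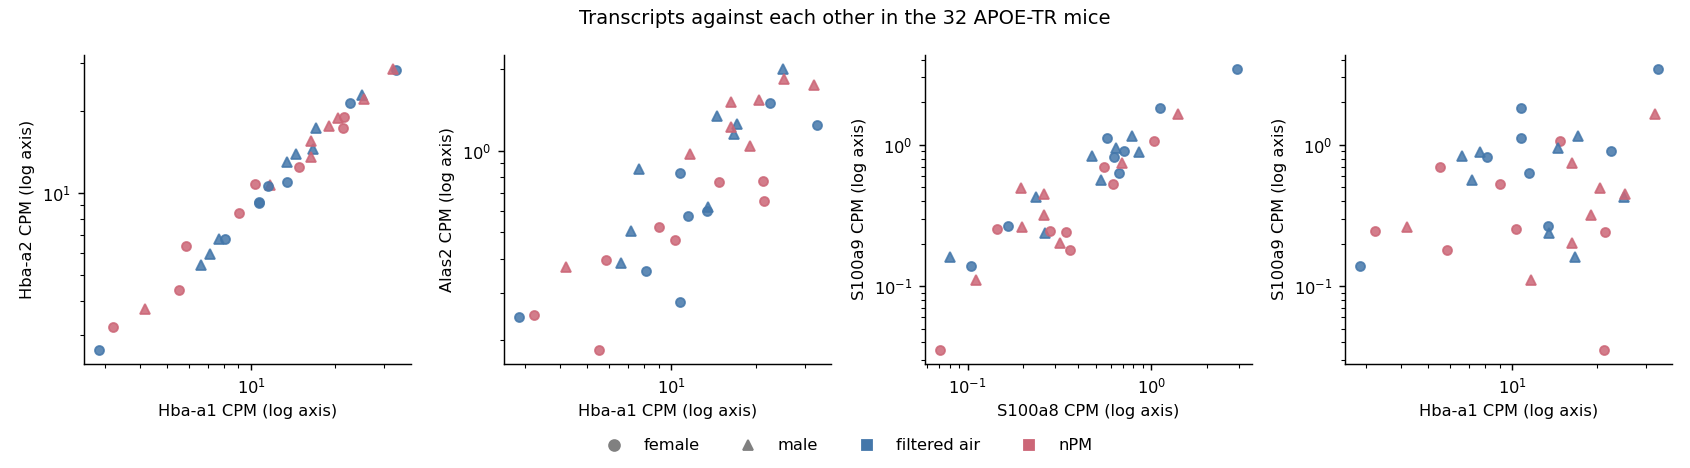
CPM of pairs of transcripts (both axes log) in the 32 APOE-TR mice, with circles for females, triangles for males, blue for filtered air and red for nPM. Hba-a2 and, more loosely, Alas2 rise with Hba-a1, S100a9 rises with S100a8, and S100a9 spreads widely at any level of Hba-a1.

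Of the variance of log2 values over the APOE-TR mice, 19.2% of Hba-a1, 18.02% of Hba-a2, 26.1% of S100a8, 29.5% of S100a9 and 49.9% of Alas2 lay between the 8 groups. The median over 14766 genes with a mean of at least 0.5 CPM was 56.7%, with 5% of genes under 19.8%. In B6 mice 5.14% of Hba-a1 and 6.92% of Hba-a2 lay between the 4 groups, against a median of 29.7% over 18059 genes.

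With the 5 members left out of the ranking, the genes most like the Hba copies in APOE-TR mice after centring on group means were the beta-globins. For Hba-a1 they were Hbb-bt (r = 0.968), Hbb-bs (r = 0.962) and Uap1l1 (r = 0.729), and for Hba-a2 they were Hbb-bt (r = 0.969), Hbb-bs (r = 0.963) and Dolk (r = 0.715). For Alas2 they were Hbb-bt (r = 0.818), Hbb-bs (r = 0.791) and Pld6 (r = 0.651). Among the members themselves, Hba-a1 with Hba-a2 (r = 0.992) was above all of these, and Alas2 with Hba-a2 (r = 0.887) and Hba-a1 (r = 0.873) was above its values with the beta-globins. S100a8, whose r with S100a9 was 0.938, was next followed by Bcs1l (r = 0.737), Trim59 (r = 0.690) and Dnaja3 (r = 0.676), and S100a9 by Rnaseh2a (r = 0.687), Dnaja3 (r = 0.665) and Bcs1l (r = 0.635). Without controls 61 and F6 Dnaja3 fell to 0.551 with S100a8 and 0.578 with S100a9. Only genes with a mean of at least 0.5 CPM were ranked, in either table. Of the 18 listed neutrophil genes 3 reached it in APOE-TR mice, so genes such as Ngp and Camp could not appear.

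In B6 mice, with 16 libraries of uneven depth, the nearest genes outside the members were others, below the r of 0.973 between Hba-a1 and Hba-a2: Twsg1 (r = 0.922), Fgf1 (r = 0.895) and Epha3 (r = 0.894) for Hba-a1, and Sik2 (r = 0.884), Lin7a (r = 0.88) and Gm14673 (r = 0.862) for Hba-a2. Hbb-bs had r = 0.856 with Hba-a1 there. Exposed B6 female 50 had Hba-a1 at 1.19 and Hba-a2 at 1.55 CPM, about 35 and 46 reads, but no read of Hbb-bs or Hbb-bt.

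The ratio of beta-globin to alpha-globin reads lay in a narrower range in males than in females of the APOE-TR mice. Hbb-bs over Hba-a1 lay between 1.84 and 2.40 in the 16 APOE-TR males (median 2.23) and between 2.24 and 5.02 in the 16 females (median 3.27). The highest, 5.02 and 4.51, were again controls 61 and F6, and without them the females reached 4.14. In B6 mice the ratio was 0.518 to 4.48 in 8 males and 0.0278 to 2.07 in 8 females, on fewer reads. There the male range was wider in absolute terms but narrower as a fold, at 8.65 against 74.6. The lowest B6 female, exposed mouse 50, had no read of Hbb-bs. Alas2 over Hba-a1 was 0.0459 to 0.112 in males and 0.0259 to 0.0854 in females. Hba-a2 over Hba-a1 had medians of 0.900 and 0.874 in males and females. The transcripts of Hbb-bs, Hba-a1 and Alas2 have 628, 699 and 2037 bases, and the sexes also differed in depth, so the part of sex itself in these ratios was not tested.

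**Figure D4:**
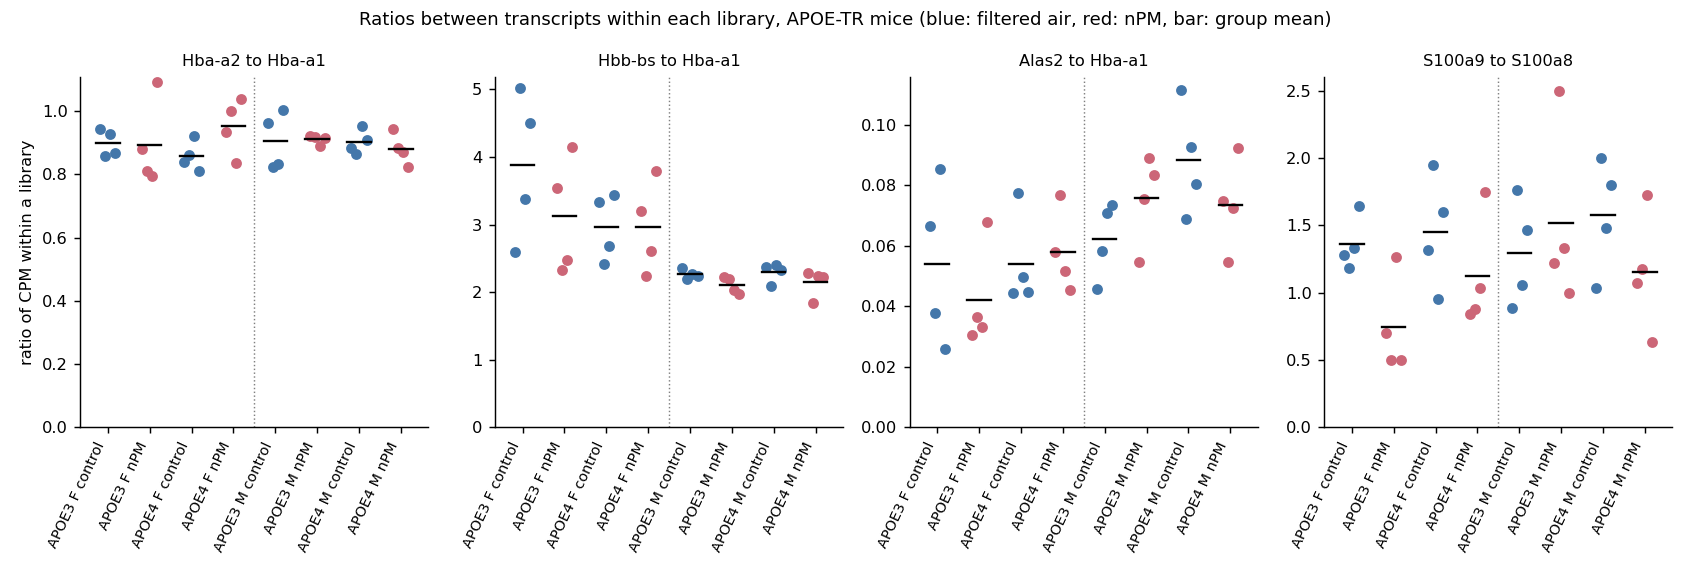
Ratio of CPM between 2 transcripts within each library (linear axes from 0) for the 8 APOE-TR groups, females left and males right of the dotted line, with the group mean as a bar. Hbb-bs to Hba-a1 is between 1.84 and 2.40 in males and spreads from 2.24 to 5.02 in females, while Hba-a2 to Hba-a1 stays between 0.793 and 1.09.

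Other red cell genes came from a list of 23, of which 20 were listed in the APOE-TR table. Hbb-bs was 7.20 to 166 CPM and Hbb-bt 4.27 to 86.9 CPM in APOE-TR mice. The membrane and precursor genes Epb42, Gata1, Rhag, Kel and Tspo2 had no read in at least 16 of these 32 mice, and Slc4a1, the anion exchanger of the red cell membrane, averaged 0.163 CPM. The highest of the list, the spectrin gene Sptb (135 CPM) and Bpgm (53.9 CPM), which makes the hemoglobin regulator 2,3-bisphosphoglycerate, are also expressed by cortical cells. Of the listed red cell genes 7 reached the mean of 0.5 CPM, and none was called for nPM or for the allele over 48 mice, with medians of -0.04 and 0.12 on the log2 scale against 0.00 for all genes in both. These 7 include Sptb and Bpgm, so the medians do not describe red cell RNA alone. With nPM, Hbb-bs differed by -0.14 (SE 0.30, adjusted p = 0.862, limma) and Hbb-bt by -0.06 (SE 0.29, adjusted p = 0.947). Hba-a1 (0.19) and Hba-a2 (0.23) had the opposite sign, and none of these estimates exceeded its SE. Between alleles Hbb-bs (0.12) and Hbb-bt (0.10) had the same sign as the Hba copies.

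The enzymes of heme synthesis other than Alas2 had reads in all APOE-TR mice, as every cell makes heme. Alas1, the form used outside red cells, was 20.8 to 34.1 CPM in APOE-TR mice, and Fech and Cpox, of the last steps, averaged 41.8 and 29.5 CPM. All 9 genes of this list, Alas2 among them, were tested over 48 mice, and 0 were called for nPM or the allele, with medians of -0.03 and -0.04.

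Genes of neutrophil granules and surface were near the level of no reads. Of 18 listed neutrophil genes 3 averaged 0.5 CPM or more in APOE-TR mice: Csf3r (4.62 CPM), the receptor of the growth factor G-CSF, which microglia also express, Mmp9 (0.931 CPM) and Prtn3 (0.632 CPM). Ngp averaged 0.267, Camp 0.121, Mpo 0.0941 and Ly6g 0.0428 CPM, where a gene without reads stands at 0.0220 to 0.0481 CPM. In B6 mice 7 of 9 listed neutrophil genes had no read in at least 8 of 16 mice. None of those tested was called in any comparison.

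Of the 5 receptors fixed for S100a8 and S100a9, Bsg (basigin) averaged 206 CPM and Cd33 4.20 CPM, Tlr4 2.15 CPM and Ager 0.239 CPM in APOE-TR mice. Bsg fell by 0.21 on the log2 scale with nPM in APOE4 females (SE 0.05, adjusted p = 0.737, called at an unadjusted p of 0.00169), 1 call among 3 tested where 0.211% of all genes were called. The S100 family was led by S100b (145 CPM), an astrocyte protein, and S100a16 (46.2 CPM), and other alarmins by Il33 (47.2 CPM) and Hmgb1 (34.97 CPM), and none of these lists had a called gene in any comparison.

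Lists of other cell types the tissue could hold gave 2 further calls among 659 tests of a gene in 13 comparisons. Ly6c2 of monocytes fell by 0.49 with nPM in APOE4 females (SE 0.14, adjusted p = 0.737, called at an unadjusted p of 0.00480), where 0.211% of all genes were called, and Flt1 of endothelium was lower by a log2 difference of -0.54 in exposed APOE4 than APOE3 males (SE 0.09, adjusted p = 0.0218), where 0.674% were. Platelet genes were low (Itga2b 0.781 and Gp5 0.738 CPM), and the lymphocyte genes Cd3e, Cd3d, Cd8a and Ms4a1 had no read in at least 16 APOE-TR mice, while Cd4 (11.6 CPM), also found in macrophages and brain, and Cd79b (0.171 CPM) led that list. Leading genes of the remaining lists were Ly6c2 (1.999 CPM) and Cd163 (1.51 CPM) for monocytes and border macrophages, Csf1r (57.3 CPM) and Cx3cr1 (55.5 CPM) for microglia, and Itm2a (27.9 CPM) and Slco1a4 (25.7 CPM) for endothelium. Mbp (2125 CPM) led the glial list, and Ptgds (137 CPM) and Igf2 (30.5 CPM) the meningeal list. Ttr (211 CPM) and Kl (8.12 CPM) led the choroid plexus list, whose sum ran from 10.2 to 1497 CPM between APOE-TR mice.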

How the data were processed

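RNA was measured in 1 cortex library per mouse, by stranded mRNA sequencing with single-end reads. The authors mapped reads with TopHat2 2.0.8b to mm10 with RefSeq annotation in Partek Flow, kept uniquely mapping reads, and deposited CPM, with 1 table for the B6 and 1 for the APOE-TR mice, on a scale not given in the sources used here. Values are whole multiples of the lowest value of a library, within 0.1 of a step, for 96.1% to 97.1% of low values in APOE-TR and 87.7% to 98.4% in B6 mice, so reads (value divided by the lowest value, minus 1) are estimates. Depth (2.05 to 31.3 M reads) limits genes under 1 CPM, and limits from 0 reads cover counting error only. Symbols listed more than once (4 rows per table) were left out.

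CPM were scaled by TMM (edgeR 4.0.16), taken as log2 after adding 0.5, and tested with limma 3.58.1 (R 4.3.3; lmFit, eBayes with a trend) over all genes with a mean of at least 0.5 CPM, with Benjamini-Hochberg adjustment. The study used either threshold, 5% FDR or an unadjusted p of 0.005. Here 0.005 was applied to nPM and 5% FDR to the alleles, and 0.005 was chosen for the allele difference of the nPM response, for which the study gives no rule. Fits over 48 mice had terms for genotype, sex and exposure and used the genes of both tables, which were normalized separately; fits of 4 with 4 mice used 1 table. Intervals are 95%, two-sided. Correlations used two-sided permutation tests. The procedure was tested on simulated data. Mice are separate animals, whose numbers do not pair them. Alternatives included other filters, pseudocounts (0.1 and 2), scalings, voom, ComBat (sva 3.50.0), edgeR and DESeq2 1.42.0 on recovered reads, and each mouse left out. The 5 genes, the gene lists and the rule for naming genes (list genes called, the top 2 of each list by mean CPM, the 3 genes most like each member) were chosen with earlier results of these data known. Tlr4, Ager, Alas1, Prtn3, Ngp, Camp, Mpo, Slc4a1 and the beta-globins, and the list genes without reads, were named in addition, after their values were seen. Some list genes are not reported here.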

Additional observations from a re-analysis of the deposited data

Results flagged for a closer look

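In each group of 4 mice the gap between the lowest or highest mouse and its nearest neighbor was compared with the range of log2 values (Dixon's test at 95%). Of 56 groups of a gene and 4 mice, 4 held a mouse past this value, where chance flags about 1 in 20. S100a8 was 0.167 CPM in APOE4 female control 7, on 4 reads, against 0.572 to 0.664 CPM in the others of its group. The other cases were mice without reads, whose value is set by the depth of the library: Alas2 and S100a9 at 0.120 CPM each in exposed B6 female 53, and S100a9 at 0.254 CPM in B6 male control 6.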

How the results depend on the processing

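Over 336 recomputed counts of called members in 13 comparisons, 332 were 0, and 11 comparisons had 0 in every alternative. In nPM in APOE3 males 1 member (S100a8) was called with no filter and 1 when each mouse had to have reads of a gene, and leaving out 1 mouse gave 0 to 1 (1, S100a9, without control 51). In nPM in APOE3 females leaving out 1 mouse gave 0 to 1 (1, S100a9, without control 63). The difference of Hba-a1 with nPM in APOE4 females, -0.36, ran from -0.625 to 0.054 when 1 mouse was left out, and reversed without exposed mouse 23; S100a8 between alleles in control females reversed to 0.21 without both libraries that stood apart and without the filter, an alternative chosen after seeing the data. In all, 78 of 1328 recomputed member values changed sign. Apart from these 2, the value before recomputing did not exceed its SE. The recomputed value did not exceed the larger of the 2 SEs, where it had an SE (edgeR gave none). The cause was not tested. Without the filter, S100a8 with nPM in APOE3 males lost its call in 6 fits without 1 mouse (range -0.66 to -0.41) and with a shared spread, and S100a9 gained one without control 51 (-0.76). A pseudocount of 0.1 CPM gave S100a8 there -1.03 and one of 2 CPM -0.19. In that comparison all genes called numbered 17 with limma, 16 with edgeR and 29 with DESeq2; DESeq2 called 471 against 96 for nPM in APOE3 females and 4367 against 44 between alleles in control females, whose libraries stood apart. In the other comparisons DESeq2 against limma called 81 and 31 (nPM in APOE4 females), 52 and 22 (APOE4 males), 151 and 83 (alleles in control males), 125 and 33 (exposed females), 227 and 99 (exposed males) and 184 and 105 (allele difference), and limma with no filter called 148, 35, 58 and 48 for nPM in APOE3 females, APOE3 males, APOE4 females and APOE4 males. Count tests were not run on B6 or 48-mouse fits, where reads are less often whole. No paired analysis was possible because animal numbers are those of separate mice and the groups of a comparison of 4 with 4 share none. Low depth limits S100a8, S100a9 and Alas2.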
